A study of Mus musculus with 11 samples.

Results

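The carboxylesterases of the Ces1, Ces2 and Ces3 subfamilies were measured in hepatocytes isolated from mice with and without a liver-specific deletion of Xbp1. Members were the 10 named genes Ces1b, Ces1c, Ces1d, Ces1e, Ces1f, Ces1g, Ces2a, Ces2e, Ces3a and Ces3b, looked up by symbol among 54232 gene identifiers in the count files. All 10 passed the filter on low counts and were among the 13303 genes tested. The mice were adult C57BL/6 males, fed chow or a diet rich in fat and sugar (HFS), and feeding lasted at most 6 weeks. Xbp1 LKO mice carried the floxed Xbp1 allele with Cre driven by the albumin promoter, which is active in hepatocytes, and controls were Xbp1 fl/fl mice. There were 3 libraries of chow-fed Xbp1 fl/fl mice and 2 of chow-fed Xbp1 LKO mice, each from 1 mouse. There were 3 libraries of each genotype on the HFS diet, each a pool of 2 mice, so 11 in all, with 19191032 to 23888401 counts. The labels do not state that the libraries came from separate isolations, so p-values measure the spread between these libraries, and in bulk hepatocyte RNA, fewer cells of a type and less RNA per cell cannot be told apart.

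Carboxylesterases are serine hydrolases of the endoplasmic reticulum that cleave carboxylic esters, amides and thioesters. In the liver they convert ester drugs and prodrugs, and some of them hydrolyse stored triglyceride whose fatty acids are then used for very low density lipoprotein (VLDL) secretion. Xbp1, once its mRNA is spliced by IRE1, encodes a transcription factor that raises genes for protein folding and secretion in this compartment. Many carboxylesterases stay in the lumen because the protein ends in a His-X-Glu-Leu type signal that the KDEL receptors bind, while those without such an end can leave the cell.

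All 10 genes lie on chromosome 8 (GRCm38, GENCODE M21 annotation). The Ces1 genes are on the minus strand between 93056728 and 93337308, and Ces2a, Ces2e, Ces3a and Ces3b are on the plus strand between 104734003 and 105093929. The last 30 bases of each coding sequence, stop codon included, are shown because they differ between members in this signal, and the capitals mark the last 4 codons before the stop. Each stretch lies in the last coding exon, and all were read from the GENCODE M21 transcripts, 5′ to 3′ on the coding strand.
Ces1b: gaccctactgagcacAGAGAACACAAAtga (chr8:93056887-93056916, minus strand)
Ces1c: gaccctactgaacacACAGAACACAAAtga (chr8:93099165-93099194, minus strand)
Ces1d: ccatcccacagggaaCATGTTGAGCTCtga (chr8:93166255-93166284, minus strand)
Ces1e: caactgccgacagaaCACACTGAGCTGtga (chr8:93201404-93201433, minus strand)
Ces1f: caaccccagccatacCACAATGAGCTGtga (chr8:93256429-93256458, minus strand)
Ces1g: tcatcccatagggaaCATGTTGAACTGtga (chr8:93302905-93302934, minus strand)
Ces2a: ggttctcaggacaagCATGCAGAGCTGtag (chr8:104741387-104741416, plus strand)
Ces2e: gggtctcaggagaggCACAAAGAGTTGtag (chr8:104933685-104933714, plus strand)
Ces3a: agaagcaggaaagttCCAGAGGAGCTCtga (chr8:105058074-105058103, plus strand)
Ces3b: agaagcaggaaagttCCAGAGGAGCTCtga (chr8:105093233-105093262, plus strand)
The capitals read His, any residue, Glu and Leu in 6 of the 10 genes, namely Ces1d, Ces1e, Ces1f, Ces1g, Ces2a and Ces2e. Ces1b and Ces1c do not have this end, nor do Ces3a and Ces3b, whose final 30 bases are identical. The capitals of Ces3a and Ces3b read Pro, Glu, Glu and Leu, so they keep the closing Glu and Leu without the His. Those of Ces1b and Ces1c close with His and Lys. Over the aligned coding sequences, identity was 95.3% between Ces3a and Ces3b, 90.9% between Ces1b and Ces1c, and 83.3% between Ces2a and Ces2e. Pairs within Ces1 were 73.0% to 90.9% identical, and pairs from different subfamilies 61.3% to 63.7%.

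Such likeness bears on how reads can be counted. Of 50-base windows, the length of the reads, 74.5% of those in Ces3a and 73.8% of those in Ces3b occurred in no other gene, and the pair shared 695 windows. The share was 82.7% for Ces2a, which shared 399 windows with the pseudogene Gm7208, 87.0% for Ces1c and 88.4% for Ces1b, which shared 190 with each other, and 96.7% or more for the other members. Of 918 genes over 200 bases long that are identical to another gene throughout, 11 had any count, and at most 12 over all 11 libraries. Gm7208 had 0 to 3 counts in a library. Levels of Ces3a, Ces3b, Ces2a, Ces1b and Ces1c may therefore be counted low, and small differences within the Ces3 pair are uncertain. The loss may exceed the shared part of the sequence. Sumo2, with 80.8% of its windows in no other gene, had 0 to 6 counts in a library, and Gapdh, with 74.9%, had 142 to 534. Levels compared between members, per kb or as shares, carry the same limit.

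Xbp1 itself checked the labels. Its level, in CPM, the count relative to the library size scaled by TMM factors, was 194, 200.3 and 221 in the chow Xbp1 fl/fl libraries and 95.7 and 128 in the chow Xbp1 LKO libraries. On the HFS diet it was 301, 295 and 242 in Xbp1 fl/fl and 117, 97.3 and 135 in Xbp1 LKO libraries. The genotypes did not overlap on either diet (log2 fold change -0.87, SE 0.18, edgeR adjusted p = 0.0183 on chow, and log2 fold change -1.26, SE 0.16, edgeR adjusted p = 0.00254 on HFS). The deletion removes exon 2, so a gene-level count also holds reads from the exons that remain.

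In Xbp1 LKO hepatocytes the Ces1 subfamily was low on both diets, together with Ces2a, while no change of Ces3a or Ces2e was detected. On chow, 7 of the 10 members were called, against 4.75% of all tested genes (632). All 7 fell, as 3.02% of all genes did (402), while none rose, as 1.73% did (230). The 7 were the 6 Ces1 genes and Ces2a. On HFS, 7 members were called, against 4.08% of all genes (543), and all 7 fell, against 2.16% that fell (287) and 1.92% that rose (256). These were Ces1b, Ces1c, Ces1e, Ces1f, Ces1g, Ces2a and Ces3b. A gene was called where the adjusted p of edgeR's quasi-likelihood test was under 0.05. The median log2 fold change of the 10 members was -2.57 on chow and -1.99 on HFS, beside 0.0024 and 0.0083 for all genes tested. On chow the calls rested on replicate 2 of the Xbp1 LKO libraries. Without it, none of the 10 was called and 69 genes were called in all, while the Ces1 log2 fold changes lay between -1.80 and -2.92 with adjusted p between 0.0588 and 0.118; the lone remaining library is then assumed to vary like the other groups. Without replicate 1 the Ces1 log2 fold changes lay between -5.06 (Ces1d) and -3.33 (Ces1b), and 8 members were called, Ces3b being the addition.

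**Figure D1:**
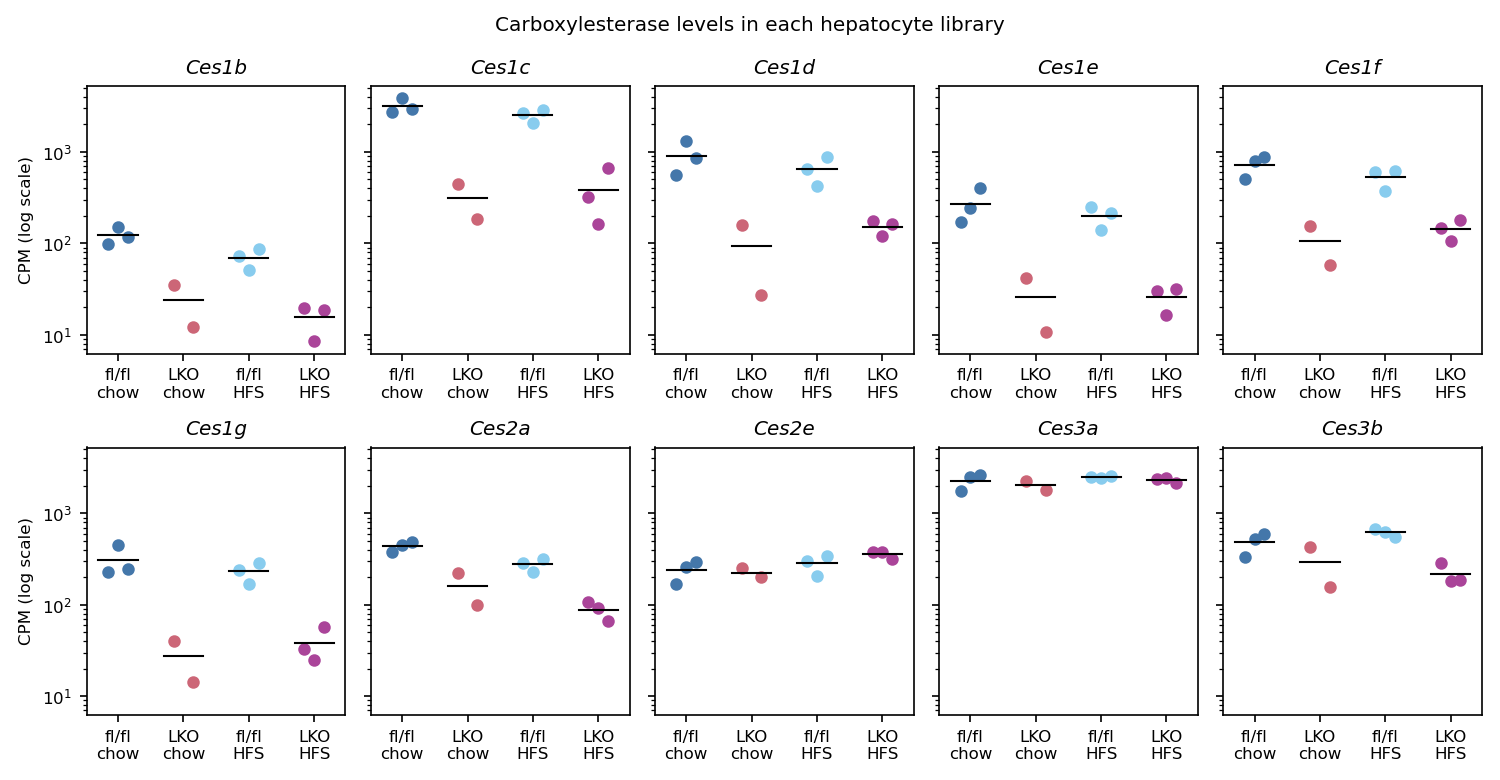
CPM of each of the 10 carboxylesterase genes on a log axis, with 1 point per library, a line at the group mean, and 3, 2, 3 and 3 libraries in the 4 groups. In the 6 Ces1 panels and for Ces2a every Xbp1 LKO library lies below every Xbp1 fl/fl library of the same diet, while the Ces2e and Ces3a points overlap or lie close together and Ces3b is lower in Xbp1 LKO on HFS.

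Ces1c encodes the esterase that mouse liver secretes into plasma. By group means it had the highest level of the family per kb of exon in control hepatocytes, though it overlapped Ces3a on HFS. Its level on chow was 2721, 3870.5 and 2965 CPM in Xbp1 fl/fl and 447 and 184 CPM in Xbp1 LKO libraries. On HFS it was 2654, 2078 and 2849 CPM in Xbp1 fl/fl and 322, 161 and 664 CPM in Xbp1 LKO libraries. The genotypes were apart on both diets, and Xbp1 LKO replicate 3 on HFS was the highest of the 5 Xbp1 LKO libraries. The mean was 10.1-fold lower on chow (log2 fold change -3.34, SE 0.57, edgeR adjusted p = 0.00868) and 6.61-fold lower on HFS (log2 fold change -2.72, SE 0.47, edgeR adjusted p = 0.00921). Without Xbp1 LKO replicate 3 the HFS value was -3.39 on the log2 scale.

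Ces1b, the nearest relative of Ces1c in sequence and its neighbour in the cluster, was the least abundant member in control hepatocytes. It measured 99.4, 152 and 118 CPM in Xbp1 fl/fl and 35.4 and 12.2 CPM in Xbp1 LKO libraries on chow. The HFS libraries held 72.6, 50.9 and 86 CPM and 19.7, 8.48 and 18.6 CPM, in the same order. No Xbp1 LKO library reached the lowest control on its diet, and the fall was 5.16-fold on chow (log2 fold change -2.37, SE 0.46, edgeR adjusted p = 0.0155) and 4.48-fold on HFS (log2 fold change -2.16, SE 0.40, edgeR adjusted p = 0.0125). Without HFS-fed Xbp1 LKO replicate 2 the HFS value was -1.87 (adjusted p = 0.0512).

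Ces1d encodes triacylglycerol hydrolase, which mobilises stored triglyceride for VLDL in hepatocytes. On chow the Xbp1 fl/fl libraries stood at 564, 1302 and 850.2 CPM and those of Xbp1 LKO mice at 159.8 and 27.2 CPM. After HFS feeding the values were 646, 428 and 877 CPM in Xbp1 fl/fl and 174, 119 and 163 CPM in Xbp1 LKO libraries. The 2 Xbp1 LKO libraries on chow differed 5.87-fold, the widest spread of the 10 members within that group, and both lay below the controls. Ces1d fell on chow (log2 fold change -3.28, SE 0.66, edgeR adjusted p = 0.0175), a call that was lost when only the groups compared were fitted (adjusted p = 0.0859). On HFS the genotypes did not overlap, but the test missed the threshold (log2 fold change -2.10, SE 0.53, edgeR adjusted p = 0.0511). Of 19 alternatives 6 called it, DESeq2 among them (adjusted p = 0.00614), and over all 19 the adjusted p reached 0.199.

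Ces1g encodes a second triglyceride hydrolase, known for limiting lipid secretion from the liver. On chow it was at 229, 448 and 248 CPM in Xbp1 fl/fl libraries against 40.7 and 14.4 CPM in Xbp1 LKO libraries. On HFS it was at 242, 169.7 and 284 CPM against 33, 24.7 and 56.6 CPM, again without overlap. On chow Ces1g was 11.2-fold lower (log2 fold change -3.49, SE 0.53, edgeR adjusted p = 0.00532). The HFS difference was 6.09-fold (log2 fold change -2.61, SE 0.43, edgeR adjusted p = 0.00781).

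Ces1e encodes egasyn, the protein that holds β-glucuronidase in the endoplasmic reticulum. The Xbp1 fl/fl libraries held 171, 241 and 401 CPM on chow and 248, 141 and 215 CPM on HFS. Xbp1 LKO libraries had 41.8 and 10.6 CPM on chow and 29.9, 16.5 and 32.1 CPM on HFS. With no overlap between genotypes, Ces1e was 10.3-fold lower on chow (log2 fold change -3.37, SE 0.59, edgeR adjusted p = 0.00959) and 7.7-fold lower on HFS (log2 fold change -2.95, SE 0.49, edgeR adjusted p = 0.00785). Gusb, which encodes β-glucuronidase, was not called on chow (log2 fold change -0.57, SE 0.23, edgeR adjusted p = 0.192) or on HFS (log2 fold change -0.39, SE 0.20, edgeR adjusted p = 0.359).

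Ces1f, the Ces1 gene with the longest exon sequence here, measured 504, 792 and 884 CPM in the chow Xbp1 fl/fl libraries and 156 and 58 CPM in the chow Xbp1 LKO libraries. On HFS the values were 606, 371 and 623 and 147, 106 and 180.0 CPM. The genotypes did not overlap on either diet, and Ces1f was 6.81-fold lower on chow (log2 fold change -2.77, SE 0.44, edgeR adjusted p = 0.00633) and 3.7-fold lower on HFS (log2 fold change -1.89, SE 0.36, edgeR adjusted p = 0.0156). The HFS call was lost without Xbp1 fl/fl replicate 1 or 3 or Xbp1 LKO replicate 2 (adjusted p = 0.0562, 0.0581 and 0.0844).

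The 6 Ces1 genes were low in the same libraries. Pearson's r of their log2 CPM was 0.906 to 0.989 over the 15 pairs and 11 libraries, which share the genotype difference, so these values describe the pattern and were not tested. Summed over the subfamily, the level was 5521 ± 1259 CPM (SD, n = 3) in chow-fed Xbp1 fl/fl and 593 ± 406 CPM (n = 2) in chow-fed Xbp1 LKO hepatocytes. On HFS it was 4214 ± 876 CPM and 759 ± 341 CPM (n = 3 each). The lowest sum belonged to chow-fed Xbp1 LKO replicate 2, at 307 CPM, and the next lowest to HFS-fed Xbp1 LKO replicate 2, at 436 CPM. All 10 members together took 0.642% to 0.925% of the counts of chow Xbp1 fl/fl libraries and 0.307% to 0.440% of those of chow Xbp1 LKO libraries. On HFS the shares were 0.618% to 0.787% and 0.395% to 0.433%.

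Within Ces2, the subfamily whose enzymes cleave esters with small acyl groups and many prodrugs, Ces2a fell on both diets and Ces2e was called on neither. Ces2a was at 376, 456 and 483 CPM in Xbp1 fl/fl and 224 and 98.5 CPM in Xbp1 LKO libraries on chow. On HFS it was at 289.8, 227 and 314 CPM and 107, 91.7 and 67 CPM. Every Xbp1 LKO library lay below every control of its diet. Ces2a fell on chow (log2 fold change -1.44, SE 0.32, edgeR adjusted p = 0.0263) and on HFS (log2 fold change -1.65, SE 0.28, edgeR adjusted p = 0.00834), and the chow value was -2.15 without Xbp1 LKO replicate 1. Without chow-fed Xbp1 LKO replicate 2 it was -0.97 (adjusted p = 0.181). The chow call was also lost without Xbp1 fl/fl replicate 2 (adjusted p = 0.0698) or replicate 3 (adjusted p = 0.055), and when only the groups compared were fitted (adjusted p = 0.0982).

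No fall of Ces2e was detected. Its level was 168, 261 and 294 CPM in Xbp1 fl/fl and 250.4 and 199 CPM in Xbp1 LKO libraries on chow, and the 2 groups overlapped. On HFS the values were 303, 206 and 345 CPM and 376, 379.8 and 318 CPM, again with overlap. The test found no difference on chow (log2 fold change -0.099, SE 0.25, edgeR adjusted p = 0.88, 95% confidence interval -0.65 to 0.46) or on HFS (log2 fold change 0.33, SE 0.23, edgeR adjusted p = 0.521, 95% confidence interval -0.16 to 0.83). The chow interval reaches down to -0.65, and with scaling by library totals the chow estimate was 0.23, also not called. On that scaling the HFS estimate was 0.59, not called either (edgeR adjusted p = 0.0886).

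By group means Ces3a was the second most abundant member per kb in control hepatocytes, though it overlapped Ces1c on HFS. On chow it measured 1741, 2492 and 2635 CPM in Xbp1 fl/fl and 2268 and 1811 CPM in Xbp1 LKO libraries. On HFS it measured 2498, 2466 and 2557 CPM and 2359, 2415 and 2170.1 CPM. The groups overlapped on chow and lay next to each other without overlap on HFS. Neither comparison was called (log2 fold change -0.17, SE 0.19, edgeR adjusted p = 0.695, 95% confidence interval -0.58 to 0.25 on chow, and log2 fold change -0.12, SE 0.17, edgeR adjusted p = 0.803, 95% confidence interval -0.49 to 0.26 on HFS). Both estimates change sign with library totals (0.16 and 0.14), and on that scaling they were not called either.

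Ces3b, which shares 26.2% of its windows with Ces3a, was lower in Xbp1 LKO hepatocytes on HFS. Its values there were 675, 625 and 557 CPM in Xbp1 fl/fl and 286, 182 and 189 CPM in Xbp1 LKO libraries, with no overlap (log2 fold change -1.50, SE 0.34, edgeR adjusted p = 0.031). On chow they were 337, 522 and 601 CPM and 429 and 157 CPM, and the first Xbp1 LKO library lay within the controls (log2 fold change -0.73, SE 0.37, edgeR adjusted p = 0.319, 95% confidence interval -1.55 to 0.091). The HFS call was lost without any 1 of the Xbp1 fl/fl libraries on HFS or without Xbp1 LKO replicate 2 or 3, with adjusted p from 0.0705 to 0.142 and log2 fold changes from -1.57 to -1.38. Without the first Xbp1 LKO library on chow, the log2 fold change of Ces3b there was -1.63. With no filter on low counts, Ces3b was called on chow as well (log2 fold change -0.71, edgeR adjusted p = 0.0142). The estimate hardly moved, and that setting called 1507 genes on chow, against 632 in the main fit.

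Counting members whose groups did not overlap gave the same picture as the test with 2 additions. On chow the Xbp1 LKO libraries were all lower for 7 members, against 15.9% of all genes, and for no member all higher, against 15.4%. On HFS they were all lower for 9 members, against 12.5% of all genes, and all higher for none, against 13.6%. The 9 were the 7 called genes, Ces1d and Ces3a. These counts used TMM-scaled CPM. With library totals, every HFS-fed Xbp1 LKO library lay above every control for Ces3a and Ces2e (log2 fold changes 0.14 and 0.59, neither called).

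**Figure D2:**
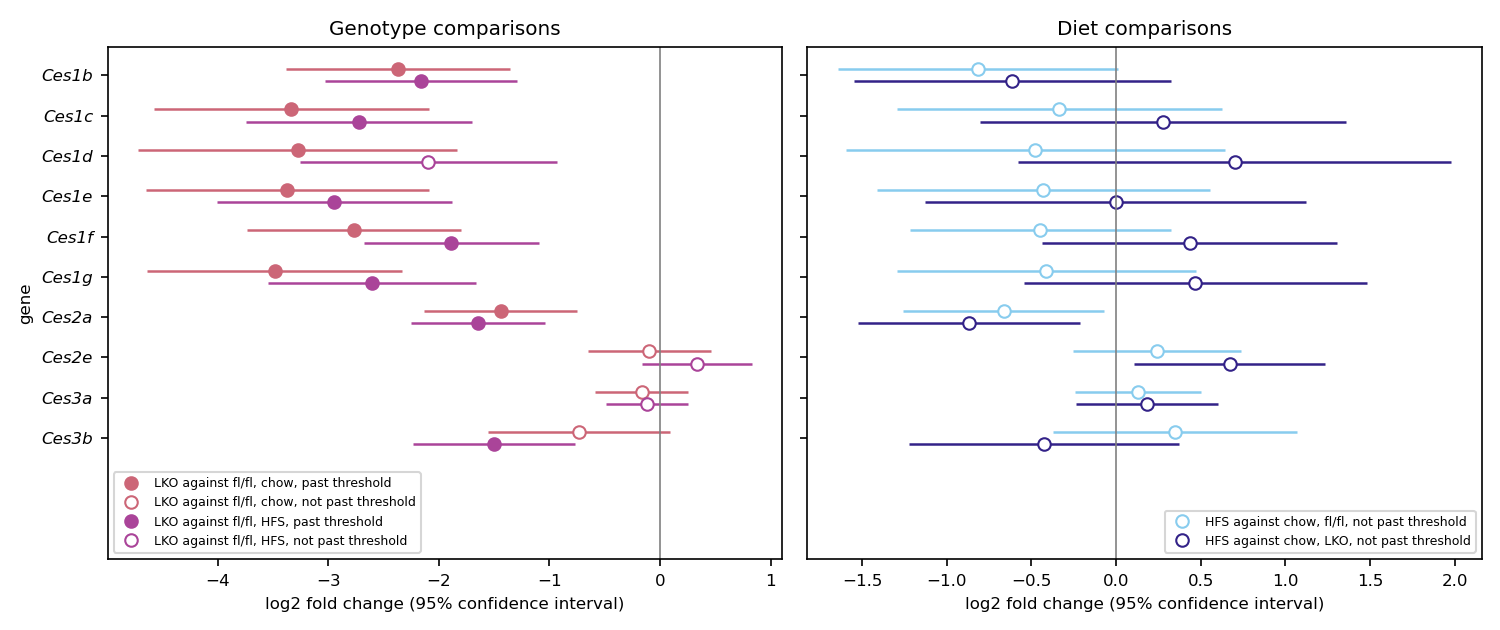
Log2 fold changes with 95% confidence intervals for the 10 members, with genotype comparisons on the left and diet comparisons on the right. Filled points passed the adjusted p threshold of 0.05. The 6 Ces1 genes lie between -3.49 and -1.89 in the genotype comparisons, Ces2e and Ces3a lie near 0, and no diet comparison has a filled point.

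With library totals as the scaling, the median log2 fold change of all genes rose by 0.33 on chow and by 0.26 on HFS. It turned the split of calls to 2685 higher and 315 lower on chow and to 1288 higher and 195 lower on HFS, while 7 and 8 of the 10 members fell and none rose. Ratios of counts between members within a library, which no scaling changes, were therefore taken as well. The 4 pairs were chosen after their values were seen and were not tested. The ratio of Ces1c to Ces3a counts was 1.56, 1.55 and 1.125 in chow-fed Xbp1 fl/fl and 0.197 and 0.102 in the chow Xbp1 LKO libraries. On HFS it was 1.06, 0.843 and 1.11 and 0.136, 0.0668 and 0.306. The geometric mean ratio was thus 9.88-fold lower on chow and 7.10-fold lower on HFS. The ratio of Ces2a to Ces2e was 2.80-fold and 4.05-fold lower, that of Ces3b to Ces3a 1.64-fold and 2.66-fold lower, and that of Ces1e to Ces1f 1.63-fold and 2.12-fold lower. None of the 4 ratios overlapped between genotypes on either diet, which the choice of pairs may have fixed, and for Ces3b to Ces3a on chow the margin was narrow (0.194 against 0.189).

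**Figure D3:**
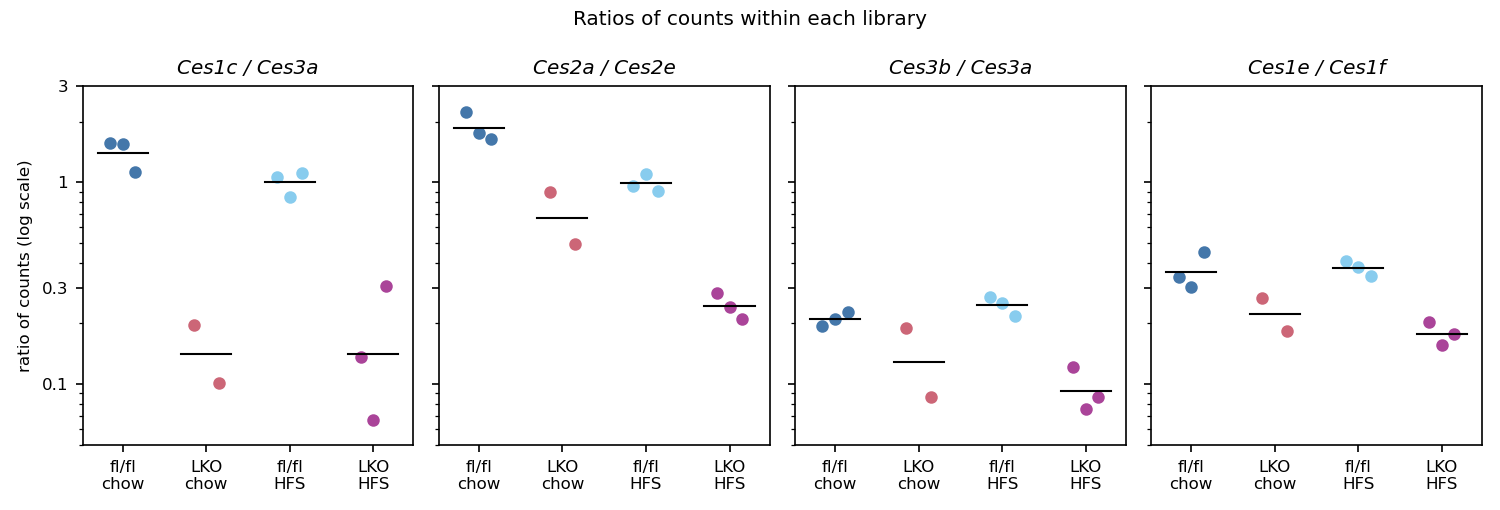
Ratio of the counts of 2 members within each library on a log axis, with 1 point per library and a line at the geometric mean of each group. All 4 ratios are lower in Xbp1 LKO libraries on both diets, by most for Ces1c over Ces3a, whose Xbp1 LKO ratios are 0.0668 to 0.306.

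The make-up of the pool changed accordingly when levels were compared per kb of exon. In chow-fed Xbp1 fl/fl hepatocytes Ces1c was first at 1371 ± 261 CPM per kb (SD, n = 3), followed by Ces3a at 872 ± 183 CPM per kb and Ces1d at 382 ± 157 CPM per kb. Their libraries did not overlap. The next 3, Ces1f at 221 ± 60.3, Ces3b at 189.7 ± 52.8 and Ces2a at 186 ± 23.5 CPM per kb, lay within their spread of each other, as did Ces1g, Ces1e and Ces2e below them, at 129 ± 50.8, 124 ± 53.7 and 89.3 ± 24.2 CPM per kb. Ces1b was last at 62.6 ± 13.5 CPM per kb, and its libraries overlapped those of Ces2e. In chow-fed Xbp1 LKO hepatocytes Ces3a was first at 776 ± 123 CPM per kb (SD, n = 2), and Ces1c at 136 ± 80, Ces3b at 114 ± 75 and Ces2e at 83.3 ± 13.4 CPM per kb overlapped behind it.

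The order on HFS was alike at the top. Xbp1 fl/fl hepatocytes had Ces1c at 1088 ± 173 and Ces3a at 954 ± 17.5 CPM per kb, which overlapped, then Ces1d at 274 ± 94.6 and Ces3b at 241 ± 23.1 CPM per kb, which overlapped as well. Xbp1 LKO hepatocytes had Ces3a at 881 ± 48.9 CPM per kb, then Ces1c at 165 ± 111 and Ces2e at 133 ± 12.9 CPM per kb, which overlapped. Dividing by the length of unique sequence in place of all exon sequence left the first and second places as they were in all 4 groups. In HFS-fed Xbp1 fl/fl hepatocytes Ces1c and Ces3a were then nearly level, at means of 1250 and 1238 CPM per kb of unique sequence. Ces3b then lay above Ces1d in HFS-fed and above Ces1f in chow-fed Xbp1 fl/fl hepatocytes. As a share of the summed CPM per kb of the 10 genes, Ces3a made up 24.1% ± 2.12 (SD) in chow-fed Xbp1 fl/fl and 62.1% ± 10.5 in chow-fed Xbp1 LKO hepatocytes. On HFS its share was 30.4% ± 3.73 and 61.2% ± 6.77. Ces1c went from 38.1% ± 4.17 to 10.1% ± 2.96 on chow and from 34.2% ± 1.04 to 11.2% ± 7.11 on HFS, and the libraries of the 2 genotypes did not overlap in either share.

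**Figure D4:**
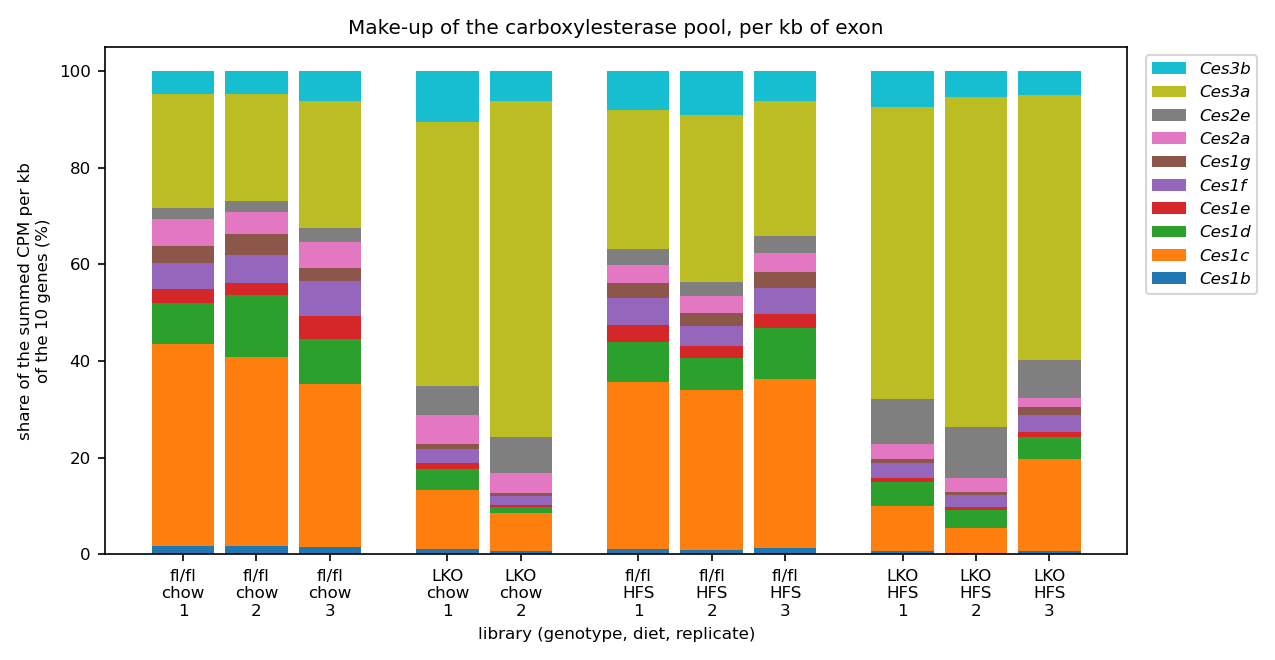
Share of each of the 10 genes in their summed CPM per kb of exon, as stacked bars from 0 to 100%, with 1 bar per library. Ces1c is the largest part in the chow Xbp1 fl/fl libraries, and Ces3a makes up more than any other gene in each Xbp1 LKO library, at 54.6% to 69.5% of the summed level.

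The HFS diet alone changed no member past the threshold. In Xbp1 fl/fl hepatocytes 57 of all genes (0.428%) were called between diets, and in Xbp1 LKO hepatocytes 8 (0.0601%), and none of them was a member. Without adjustment, p was under 0.05 for 1 member in Xbp1 fl/fl (8.95% of all genes) and 2 in Xbp1 LKO hepatocytes (12.7%). Ces2a had the smallest p of the 10 in both. Its fold change from chow to HFS was -0.66 in Xbp1 fl/fl (SE 0.27, edgeR adjusted p = 0.499) and -0.87 in Xbp1 LKO hepatocytes (SE 0.30, edgeR adjusted p = 0.283), on the log2 scale. The other unadjusted p under 0.05 was that of Ces2e in Xbp1 LKO hepatocytes (log2 fold change 0.67, SE 0.26, edgeR adjusted p = 0.319). The 6 Ces1 genes had log2 fold changes of -0.82 to -0.33 in Xbp1 fl/fl and of -0.61 to 0.70 in Xbp1 LKO hepatocytes, none of them called.

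Whether the genotype effect differed between the diets was tested as an interaction. Pooling of mice differed with diet here as well, so the interaction cannot tell them apart. edgeR called none of the 10 members and 0 of all genes (0%), while 816 genes (6.13%) but no member had an unadjusted p under 0.05, and DESeq2 called 29 genes and no member. For the Ces1 genes the difference of the log2 fold changes, HFS minus chow, was 0.20 to 1.18, with adjusted p from 0.855 to 0.978. The estimate of Ces1d was the largest (log2 fold change 1.18, SE 0.78, edgeR adjusted p = 0.868, 95% confidence interval -0.52 to 2.88), so an effect of that size could not be told from 0 here. It moved to 2.95 without chow-fed Xbp1 LKO replicate 1 and to 0.41 without replicate 2.

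The other carboxylesterases were mostly scarce. Of 10 further genes of the family, 5 passed the filter, and none of these was called in any comparison. Ces2g, the most abundant, measured 57.1, 69.2 and 41 CPM in chow-fed Xbp1 fl/fl and 70.1 and 58.4 CPM in the chow Xbp1 LKO libraries (log2 fold change 0.20, SE 0.18, edgeR adjusted p = 0.6). Ces2c measured 28.6, 46.7 and 50 CPM and 72.5 and 53 CPM in the same groups (log2 fold change 0.59, SE 0.27, edgeR adjusted p = 0.27). Ces2b and Ces2h reached at most 8.14 and 1.14 CPM, and Ces4a was at 1.65, 2.72 and 5.23 CPM in chow-fed Xbp1 fl/fl and 4.82 and 20.8 CPM in the chow Xbp1 LKO libraries (log2 fold change 1.99, SE 0.73, edgeR adjusted p = 0.155). The second of these libraries carried the Ces4a estimate, which was 0.58 without it. Ces1a and Ces1h, at either end of the Ces1 cluster, had 1 to 10 and 0 to 4 counts in a library. Ces5a had no count in any library, which allows up to 3 counts, or at most 0.173 CPM in a library, by counting error only.

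Genes next to the clusters are set beside the shares of all genes called, 4.75% on chow and 4.08% on HFS. Within 500 kb of the outermost Ces2 and Ces3 members, 27 tested genes outside the family had a median log2 fold change of -0.00037 on chow and 0.11 on HFS. Of the 27, 1 was called, Tmem208, which encodes a membrane protein of the endoplasmic reticulum. It fell on chow (log2 fold change -1.003, edgeR adjusted p = 0.00836) and on HFS (-0.82, edgeR adjusted p = 0.0111). Around the Ces1 cluster only Gm45909, which lies within the span of Ces1d, and Gm45727, between Ces1e and Ces1f, were tested. Their estimates were below 0 on chow, as those of the Ces1 genes were, at -1.26 (edgeR adjusted p = 0.146) and -1.76 (edgeR adjusted p = 0.131). On HFS they were -0.26 and 0.43, and neither gene was called on either diet. This window was set after the values of the members were known.

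Pathway genes around the enzymes were read from lists of their own. Among 19 genes of triglyceride storage and VLDL assembly, 5 fell on chow, namely Dgat2, Hsd17b13, P4hb, Surf4 and Tm6sf2, and 2 fell on HFS, Dgat2 and P4hb, beside the 3.02% and 2.16% of all genes that fell. None of the 19 rose on either diet. The list's median log2 fold change was -0.39 on chow and -0.29 on HFS. Dgat2, which makes triglyceride in the last step of its synthesis, was at 689.6, 814 and 645 CPM in chow-fed Xbp1 fl/fl and 296 and 162 CPM in the chow Xbp1 LKO libraries (log2 fold change -1.64, SE 0.27, edgeR adjusted p = 0.00725), and it fell on HFS as well (log2 fold change -1.89, SE 0.23, edgeR adjusted p = 0.00254). P4hb, a disulfide isomerase that also forms part of the VLDL transfer complex, fell on chow (log2 fold change -1.59, SE 0.24, edgeR adjusted p = 0.00544) and on HFS (log2 fold change -1.17, SE 0.21, edgeR adjusted p = 0.0109). Hsd17b13, a lipid droplet enzyme, was at 322, 429 and 465 CPM in chow-fed Xbp1 fl/fl and 85.3 and 25.4 CPM in the chow Xbp1 LKO libraries. It fell on chow (log2 fold change -2.87, SE 0.52, edgeR adjusted p = 0.0109; -3.997 without Xbp1 LKO replicate 1 and -2.25 without replicate 2) and was not called on HFS (log2 fold change -1.20, SE 0.42, edgeR adjusted p = 0.147). Surf4, a cargo receptor for lipoproteins, fell on chow (log2 fold change -0.57, SE 0.14, edgeR adjusted p = 0.0449) and was not called on HFS (log2 fold change -0.50, SE 0.13, edgeR adjusted p = 0.0519). The chow calls of Surf4 and Tm6sf2 were lost without chow-fed Xbp1 fl/fl replicate 1 or 2. That of Surf4 was also lost without any HFS-fed library other than Xbp1 LKO replicate 1. All 5 chow calls were lost without chow-fed Xbp1 LKO replicate 2, with adjusted p from 0.0654 to 0.24.

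Calls among other hydrolases are to be read beside the 4.75% of all genes called on chow and the 4.08% called on HFS. Of 12 tested lipid hydrolases out of 13, none was called on chow and 1 fell on HFS, Lipc, the hepatic lipase (log2 fold change -0.82, SE 0.17, edgeR adjusted p = 0.0256). Its call was lost without Xbp1 fl/fl replicate 1 or 3 or Xbp1 LKO replicate 2 or 3 on HFS, with adjusted p from 0.0803 to 0.115. Pnpla2, the adipose triglyceride lipase, was not called (log2 fold change 0.38, SE 0.16, edgeR adjusted p = 0.218 on chow). Lipc on chow had a log2 fold change of -0.62 (edgeR adjusted p = 0.0999). Nceh1, which hydrolyses cholesteryl esters, stood at 0.41 on chow and 0.45 on HFS, and Lipa, the lysosomal acid lipase, at 0.27 on HFS, none of them called. None of 16 other esterases and xenobiotic hydrolases was called on either diet, with medians of -0.20 and -0.02. Within that list Aadac, an arylacetamide deacetylase of the endoplasmic reticulum, had a chow log2 fold change of -0.53 (edgeR adjusted p = 0.162), and Apeh, an acylpeptide hydrolase, one of -0.34 (edgeR adjusted p = 0.206). On HFS the smallest p of the list was that of Afmid, an arylformamidase, at -0.97 (edgeR adjusted p = 0.0737). Pon2, a paraoxonase, had an HFS value of 0.34 (edgeR adjusted p = 0.243), and Ephx1, the microsomal epoxide hydrolase, an HFS value of 0.78 (edgeR adjusted p = 0.0772). Of the KDEL receptors, Kdelr1 and Kdelr2 were tested and neither was called on either diet (Kdelr2 on chow, log2 fold change -0.36, SE 0.13, edgeR adjusted p = 0.166).

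Regulators known to act on liver esterase and drug metabolism genes were read beside the same shares. Among 12 nuclear receptors and hepatocyte transcription factors, none was called on chow, and 1 rose on HFS, Nfe2l2, which encodes NRF2 (log2 fold change 0.59, SE 0.12, edgeR adjusted p = 0.0191). Its HFS values were 73.1, 66 and 72.9 CPM in Xbp1 fl/fl and 105, 115 and 100.4 CPM in Xbp1 LKO libraries. Nr1i3, which encodes CAR, and Ppara were not called on chow (log2 fold change 0.26, SE 0.22, edgeR adjusted p = 0.587 for Nr1i3, and log2 fold change -0.21, SE 0.18, edgeR adjusted p = 0.576 for Ppara), nor was Nfe2l2 there (0.16). On HFS Nr1h3 had a log2 fold change of -0.19, not called. Of 12 enzymes responsive to CAR, PXR, PPARA or NRF2, none was called on chow and 1 fell on HFS, Cyp2b10, a target of CAR (log2 fold change -2.76, SE 0.56, edgeR adjusted p = 0.0206). Cyp2b10 had 7.34, 23.3 and 20.1 CPM in HFS-fed Xbp1 fl/fl libraries and 4.24, 0.892 and 2.38 CPM in HFS-fed Xbp1 LKO libraries. The Nfe2l2 call was lost when any Xbp1 fl/fl library or Xbp1 LKO replicate 2 was left out on HFS, and the Cyp2b10 call when Xbp1 fl/fl or Xbp1 LKO replicate 2 or 3 was, with adjusted p from 0.062 to 0.0914, and Cyp2b10 was at -3.37 without Xbp1 LKO replicate 1. The chow log2 fold changes of Por, Cyp4a14 and Cyp3a11 were 0.67, 0.73 and 0.54, and the HFS values of Gstm1 and Nqo1 were 0.88 (edgeR adjusted p = 0.0524) and 0.96 (edgeR adjusted p = 0.0621). No gene of these lists was called between diets in either genotype. Among those with the smallest p, the log2 fold changes from chow to HFS in Xbp1 fl/fl hepatocytes were -1.45 for Cyp3a11, 2.09 for Cyp2b10, 1.59 for Apoa4, 1.09 for Nr0b2, 0.47 for Mgll, 2.37 for Pnpla3, -0.54 for Plin2, -0.35 for Pon2, -0.51 for Ephx1 and 0.24 for Rxra. In Xbp1 LKO hepatocytes they were -0.52 for Pnpla2, 0.66 for Aadac, 1.25 for Nr0b2, 0.53 for Mgll, 1.67 for Apoa4, 0.41 for Sar1b, 0.30 for Lypla1, 0.34 for Nfe2l2, -0.82 for Cyp3a11 and 0.49 for Gclc.

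Some hepatocyte markers fell in the same libraries as the Ces1 genes. Of 18 markers, 4 fell on chow, namely Alb, F2, Serpina1a and Serpina1c, and 3 on HFS, Apoa1, F2 and Serpina1c, beside the 3.02% and 2.16% of all genes that fell. On each diet 17 of 18 estimates were below 0, with medians of -0.74 and -0.80, the exception being Cyp7a1 at 0.92 and 0.14. All of these calls were lost without Xbp1 LKO replicate 2 of the diet concerned, and the log2 fold change of Alb on chow was -2.93 without Xbp1 LKO replicate 1. The chow call of Serpina1c was also lost when any Xbp1 fl/fl or any HFS-fed library was left out, and that of F2 without chow-fed Xbp1 fl/fl replicate 1 or 2. On HFS, Apoa1 was lost without Xbp1 fl/fl replicate 1 or 3, and Serpina1c without any HFS-fed Xbp1 fl/fl library. Both were lost without HFS-fed Xbp1 LKO replicate 3 as well. The summed marker level was 186616, 199784 and 202864 CPM in chow-fed Xbp1 fl/fl and 98866 and 67734 CPM in the chow Xbp1 LKO libraries. On HFS it was 156921, 164883 and 167603 and 113344, 77916 and 91390.1 CPM. Alb, the most abundant marker, took 8.06% to 10.9% of counts in the chow Xbp1 fl/fl libraries and 1.67% and 3.72% in the chow Xbp1 LKO libraries (log2 fold change -2.14, SE 0.38, edgeR adjusted p = 0.0107). On HFS its shares were 5.88% to 7.42% and 3.33% to 5.40% (log2 fold change -0.86, SE 0.32, edgeR adjusted p = 0.178). The lowest marker sum and the lowest Ces1 sum were in the same library, chow-fed Xbp1 LKO replicate 2, and the part of these marker differences in the Ces1 result was not tested.

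Markers of other liver cells were scarce. No macrophage marker of 14, endothelial marker of 12 or stellate cell marker of 11 tested was called for genotype on either diet. The macrophage sum, led by Cd5l, was 100.5, 23.7 and 24.5 CPM in chow-fed Xbp1 fl/fl and 27.6 and 40.2 CPM in the chow Xbp1 LKO libraries, and 64.7, 49.8 and 45 and 63.9, 70.2 and 115 CPM on HFS. The endothelial sum, led by Stab2, was 122, 49.9 and 62.1 and 37.6 and 30 CPM on chow, and 165, 97.1 and 136 and 128, 86.2 and 80.6 CPM on HFS. On chow both Xbp1 LKO libraries lay below every control in the endothelial sum, while on HFS the genotypes overlapped. On chow all 12 endothelial estimates were below 0 (median log2 fold change -1.34), as were all 11 stellate estimates (median -1.20) and 13 of 14 macrophage estimates (median -0.47). On HFS the numbers were 12, 3 and 0, with medians of -0.38, 0.37 and 0.63. From chow to HFS in Xbp1 LKO hepatocytes they were 0, 0 and 0, with medians of 1.62, 2.26 and 1.31. In Xbp1 fl/fl hepatocytes they were 0, 0 and 6, with medians of 0.79, 0.45 and 0.036. None of these markers was called between diets. The stellate sum, led by Ecm1, was 65.8, 19.5 and 24.5 and 14.2 and 16.9 CPM on chow and 61.8, 41 and 34.5 and 81.4, 49.8 and 39.4 CPM on HFS, and on chow both Xbp1 LKO libraries were again the lowest. Of 8 cholangiocyte markers 3 were tested, and Sox9 fell on chow (log2 fold change -1.54, SE 0.31, edgeR adjusted p = 0.0167), a call that was lost when either Xbp1 LKO library was left out. The part of these cells in the carboxylesterase values was not tested.

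Outside the family, the genes whose log2 CPM followed a member most closely over the 11 libraries were taken for the most abundant member of each subfamily per kb, from 11116 genes with a mean of at least 1 CPM. For Ces2 the lead of Ces2a rested on a mean over all libraries of 105 against 104 CPM per kb for Ces2e, and Ces2e was the higher of them in both Xbp1 LKO groups. For Ces1c they were Ndufa9, a subunit of respiratory complex I, Proc, the precursor of protein C, and Azgp1, a secreted glycoprotein, with Pearson's r of 0.991, 0.989 and 0.989. Proc measured 594, 708 and 645 CPM in chow-fed Xbp1 fl/fl and 286 and 195 CPM in the chow Xbp1 LKO libraries, and 713, 646 and 719 and 250.02, 178 and 294 CPM on HFS. For Ces2a they were Hnf4aos, a transcript antisense to Hnf4a, Utp14b and S100a1, with r of 0.972, 0.971 and 0.969. The paper describes stranded libraries. Whether the counting used strand is not given in the sources used here, so Hnf4aos may hold reads of Hnf4a. For Ces3a they were Nampt, Igf1 and Wwp1, with r of 0.946, 0.929 and 0.924. Igf1, the liver growth factor, was at 381, 672 and 776 CPM in the chow Xbp1 fl/fl libraries and 527 and 322 CPM in the chow Xbp1 LKO libraries, with the groups overlapping. These are the highest of many correlations over samples that share group differences, and they carry no test.

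Promoters were read for the 7 members in the RefSeq promoter table (250 bases before to 50 after the start, both strands). They had 8 starts, since Ces1b has 2. The XBP1 core motif CCACG was in none of the 7 and in 32.8% of all 32851 promoters, and TGACGTG, which can overlap the reverse complement of CCACG, was in none of the 7 and in 2.01% of all. TATAAA was found in Ces1g and Ces3b and in 13.6% of all promoters. The HNF4A motif CAAAGTCCA and the CEBP motif TTGCNCAA were in none of the 7 and in 0.475% and 2.94% of all. A match or its lack in this window says nothing of whether a factor binds there.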

How the data were processed

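Hepatocyte RNA was sequenced as 50-base single-end reads. The deposited files hold raw counts (whole numbers) for Ensembl genes, with no normalization by the authors. The paper's methods name kallisto and tximport, whereas the submitters' processing notes name cutadapt 1.13, STAR, HTSeq 0.6.1p1, DESeq2 and the mm10 build. Genes identical to another gene had almost no counts, as when reads matching several places are not counted. Of 54232 identifiers, 54165 were found in GENCODE M21.

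Groups and replicate numbers came from the sample labels. The chow-fed Xbp1 LKO library called replicate 2 carries the number 3 in its file name. Of that group, 2 libraries were analysed here, fewer than the study describes. In R 4.3.3, edgeR 4.0.16 fitted a quasi-likelihood model of 4 groups to 11 libraries with TMM factors, after filterByExpr at a minimum count of 10, with Benjamini-Hochberg adjustment over 13303 genes and a threshold of 0.05. CPM used TMM-scaled library sizes. DESeq2 1.42.0, other scalings and filters, only the groups compared, a replicate block and each library left out were alternatives. The code was tested on simulated counts.

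The members and the 12 gene lists were chosen with earlier results of these data known. Named genes were the members, Xbp1, Alb, Gusb, the KDEL receptors, the other carboxylesterases, and in each pathway list those with the smallest unadjusted p (up to 3 per genotype comparison and 2 per diet comparison), plus the 3 genes most correlated with the leading member of each subfamily (log2 CPM, prior count 2). Tmem208, called markers and Tm6sf2 were named after their values were seen. One gene that this rule selects is not reported here.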

Additional observations from a re-analysis of the deposited data

How the results depend on the processing

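With DESeq2, 1130, 1007, 181, 213 and 29 genes were called in the chow genotype, HFS genotype, Xbp1 fl/fl diet, Xbp1 LKO diet and interaction comparisons, beside 632, 543, 57, 8 and 0 by edgeR. With no filter they were 1507, 1438, 499, 722 and 269. For diet, 2 members were then called in Xbp1 fl/fl (Ces1b and Ces2a) and 3 in Xbp1 LKO (Ces1b, Ces2a and Ces2e). For the interaction 1 was called (Ces1d). For genotype 8 were called on each diet, with Ces3b the addition on chow and Ces1d on HFS. For diet in Xbp1 fl/fl, the edgeR adjusted p of Ces1b went from 0.567 to 7.4e-05, its only call among 19 alternatives. Its log2 fold changes stayed between -0.99 and -0.63 over all 19, so that call came with a smaller estimate of spread. The cause was not tested. Library totals gave 3000 and 1483 for genotype on chow and HFS. Fitting only the groups compared gave 233 for genotype on chow, with 5 members (Ces1d and Ces2a were the members lost), and 0 for diet in Xbp1 LKO. Leaving out 1 library at a time gave 69 to 762 genes and 0 to 8 members on chow, 184 to 662 genes and 4 to 8 members on HFS, 6 to 59 genes for diet in Xbp1 fl/fl, 0 to 36 for diet in Xbp1 LKO and none for the interaction. Without HFS-fed Xbp1 LKO replicate 2, the members called on HFS were Ces1c, Ces1e, Ces1g and Ces2a. The libraries whose removal moved the chow genotype count by over 1.5 times were chow-fed Xbp1 fl/fl replicate 2 (326) and Xbp1 LKO replicate 2 (69), and for the HFS count all 3 HFS-fed Xbp1 fl/fl libraries (239, 275 and 230) and Xbp1 LKO replicates 2 and 3 (184 and 285). The causes were not tested.

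In the genotype comparisons the Ces1 and Ces2a estimates stayed below 0 under each alternative run. The log2 fold changes that changed sign were not called under the setting concerned. With library totals, genotype gave 0.23 for Ces2e and 0.16 for Ces3a on chow and 0.14 for Ces3a on HFS, and the interaction of Ces3a was -0.014. With the stricter filter, diet in Xbp1 LKO gave 0.0098 for Ces1e. Over the 11 fits with 1 library left out, signs differed for genotype on chow at -0.30 to 0.069 for Ces2e, and for diet in Xbp1 fl/fl at -0.032 to 0.24 for Ces3a. They also differed for diet in Xbp1 LKO at -1.18 to 0.34 for Ces1b, -0.39 to 1.05 for Ces1c, -0.064 to 2.48 for Ces1d, -0.67 to 1.30 for Ces1e, -0.10 to 1.31 for Ces1f, -0.088 to 1.40 for Ces1g, and -0.97 to 0.47 for Ces3b, and for the interaction at -0.37 to 1.16 for Ces1b, -0.052 to 1.38 for Ces1c, -0.24 to 1.73 for Ces1e, -0.68 to 0.50 for Ces2a, -0.099 to 0.22 for Ces3a, and -1.32 to 0.12 for Ces3b.

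Same-numbered libraries did not deviate together (mean r -0.0087 over 15 pairs, 4 above 0.1, and 4 of 11 libraries closest to their own number). No pairing of animals by number was thus detected, and this check cannot show how animals were numbered. A fit with the replicate number as a block called 19 genes for diet in Xbp1 LKO and the same number of members in each comparison. The second chow-fed Xbp1 LKO library is numbered 2 by its title and 3 by its file name. With the number 3, an alternative chosen after seeing the data, the mean r was -0.013, the block called 53 genes for diet in Xbp1 LKO and the same number of members in each comparison, and the diet estimate of Ces1e in Xbp1 LKO was 0.21.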
